A study of Mus musculus with 16 samples.

Results

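The genes described here are 10 hypoxia and glycolysis response genes of the mouse: Slc2a1, Hk2, Pfkfb3, Ldha, Adm, Vegfa, Bnip3, Egln3, Ankrd37 and Car9. They were chosen by name, with earlier results of these data known. Each was read from the probe set whose only gene symbol in the platform annotation is that gene, and all 10 were found among the 19938 genes with such a probe set. Labelled cDNA from whole brain of 8-week-old male mice was read on 16 arrays of the Affymetrix Mouse Gene 1.0 ST type, in 4 groups of 4. These were arrays labelled TNF knockout 24 h after permanent middle cerebral artery occlusion (pMCAO, a model of ischaemic stroke), naive arrays labelled TNF knockout, C57BL/6 arrays 24 h after pMCAO, and naive C57BL/6 arrays. The TNF knockout allele and the background strain it was kept on are not given in the labels. No sham-operated group was part of the design, and a stroke change therefore includes any effect of the surgery. Arrays of a group are numbered, but nothing says that each came from its own animal, so the p-values measure only the spread between these samples, which may be technical.

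Cells that lack oxygen stop degrading the hypoxia-inducible factors (HIF), transcription factors that bind a short core sequence, the hypoxia response element, near their targets. HIF targets bring in glucose, speed glycolysis and turn pyruvate into lactate, signal to blood vessels, trim mitochondria and, through the prolyl hydroxylases, restrain HIF itself. In ischaemic brain this programme is known mainly from tissue around the infarct, whereas the RNA here came from the whole brain. In such bulk RNA, fewer cells of a type and less RNA per cell cannot be told apart.

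The promoters of these genes carry the letters that HIF is known to bind. The core was searched as ACGTG and as GCGTG on both strands, so CACGT and CACGC count as matches, in RefSeq windows of 300 bases (250 before and 50 after a transcript start; GRCm38.p6). A CACGTG holds overlapping matches on both strands. The 100 bases before the start are printed for the 3 genes that passed the test after stroke over both genotypes (Hk2, Adm and Slc2a1) and for 3 that did not (Ldha, Ankrd37 and Car9). They read 5′ to 3′ along the gene's strand, with the matches in capitals.
Hk2, chr6:82774455-82774554, minus strand: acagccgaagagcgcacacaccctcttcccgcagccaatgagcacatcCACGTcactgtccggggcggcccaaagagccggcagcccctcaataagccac
Adm, chr7:110627557-110627656, plus strand: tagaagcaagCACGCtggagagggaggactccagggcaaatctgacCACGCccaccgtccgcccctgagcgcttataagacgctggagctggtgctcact
Slc2a1, chr4:119108645-119108744, plus strand: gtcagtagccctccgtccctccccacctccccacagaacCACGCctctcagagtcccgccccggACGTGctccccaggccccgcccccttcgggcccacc
Ldha, chr7:46845704-46845803, plus strand: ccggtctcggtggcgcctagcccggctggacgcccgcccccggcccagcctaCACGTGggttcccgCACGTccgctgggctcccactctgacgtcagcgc
Ankrd37, chr8:45999851-45999950, minus strand: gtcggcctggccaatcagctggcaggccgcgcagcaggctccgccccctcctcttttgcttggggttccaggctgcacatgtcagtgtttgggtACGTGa
Car9, chr4:43506926-43507025, plus strand: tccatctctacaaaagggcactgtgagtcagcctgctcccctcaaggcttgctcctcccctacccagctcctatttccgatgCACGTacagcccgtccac

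All 10 genes held at least 1 match to either form of the core in a window, against 46.7 percent of the 27025 genes with windows. With ACGTG alone the count was 9 of 10 genes, against 21.8 percent of all genes, and Adm was the gene without it. By window, 12 of 13 held a match, against 43.8 percent of 32851 windows, and the window without one was the first of the 2 Vegfa windows. The core was present in genes that passed the test after stroke and in genes that did not, and Ldha, with 7 matches in its first window, had the most. A match is a description of the letters and does not show binding. The 10 genes were chosen as hypoxia response genes, and the windows of all genes were not matched to theirs for base composition. The shares are therefore no test of the list.

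**Figure D1:**
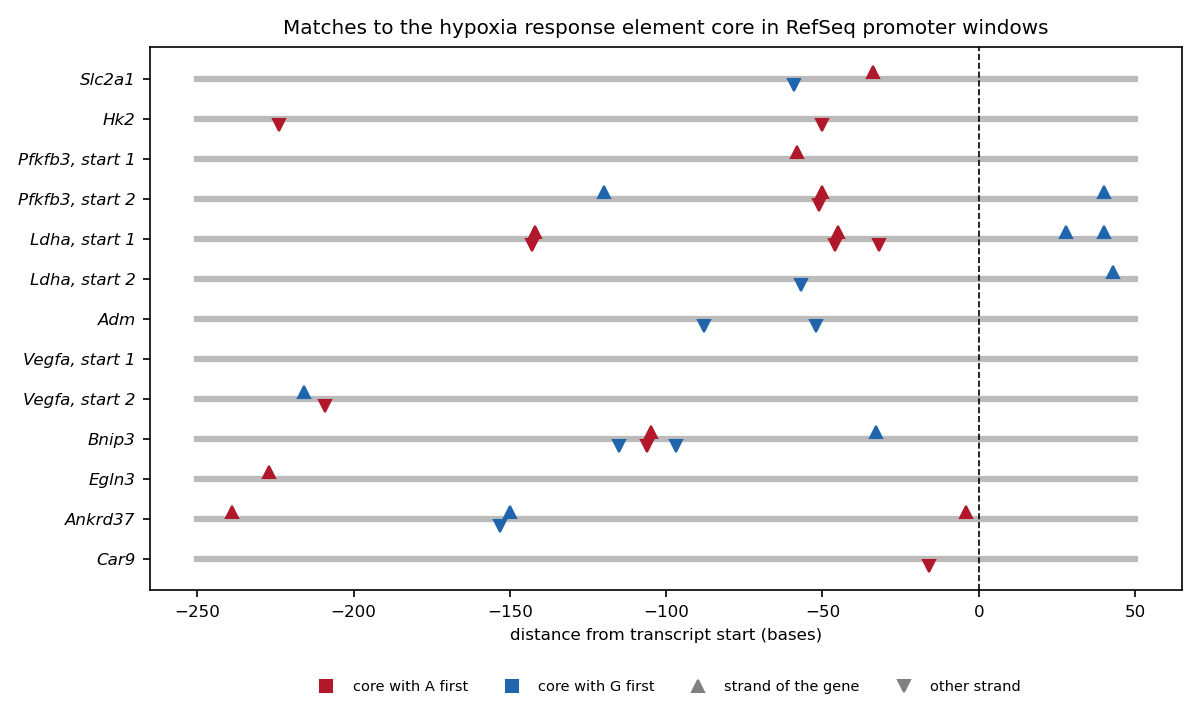
Matches to the hypoxia response element core in the RefSeq windows of the 10 genes, 1 row per transcript start, by distance from the start in bases (dashed line at the start; grey bars span the 300 bases searched). Triangles point up for the gene's strand and down for the other, red for the core that begins with A and blue for the core that begins with G; Ldha start 1 has 7 matches and Vegfa start 1 has 0.

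Levels are log2 probe set summaries, as deposited, and changes are differences of log2 levels with the SE from limma. Array medians lay between 6.01 and 6.05 and arrays of 1 group correlated at 0.991 to 0.996. The number of arrays limits the precision. The neuron transcript Snap25, which encodes a synaptic membrane fusion protein, marked the tissue as brain. It averaged 12.20 ± 0.12 and 12.23 ± 0.10 (SD, n = 4 each) in the stroke and naive arrays labelled TNF knockout. In the stroke and naive C57BL/6 arrays it averaged 12.23 ± 0.05 and 12.16 ± 0.02. Alb, the plasma albumin made by liver, stayed between 3.62 and 3.75 in the 4 group means. Apoa2, the other liver gene listed, was not low: its group means of 6.24 to 6.48 lay above the array medians. Tnf itself went against the genotype label. It averaged 6.80 ± 0.17 and 6.41 ± 0.19 (SD, n = 4 each) in the stroke and naive arrays labelled TNF knockout, against 5.57 ± 0.19 and 5.30 ± 0.33 in the stroke and naive C57BL/6 arrays. Where the probe set lies relative to the deletion is not known, and outside it the probe set would be no check, so the groups are named by their label. Sample names begin with KL42 for all C57BL/6 arrays and with KL76 or KL82 for those labelled TNF knockout, so genotype and name prefix cannot be told apart. The labels do not say what a prefix stands for.

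After stroke, Hk2, Adm and Slc2a1 were higher over both genotypes, by 1.21-fold to 1.34-fold, and the other 7 genes did not pass the test. This comparison asks whether the transcripts of the hypoxia response are raised in whole brain a day after the occlusion. With the stroke change averaged over both genotypes, 3 of 10 genes rose and 0 fell (limma, adjusted p under 0.05 over all genes), against 2.8 percent of all 19938 genes past the threshold in either direction and 1.78 percent higher. The median change of the 10 genes was 0.09, beside 0.00 over all genes. Because the 10 genes were chosen with earlier results of these data known, neither comparison with all genes is a test of the list. Within the arrays labelled TNF knockout 0 of 10 passed, against 0.642 percent of all genes, while 3 were higher and 1 lower at an unadjusted p under 0.05 (8.39 percent of all genes in either direction). Within C57BL/6 arrays 1 of 10 passed, Hk2, against 1.68 percent of all genes.

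The glucose route is taken first, from uptake to lactate. Slc2a1 encodes GLUT1, the glucose transporter of the blood-brain barrier and of astrocytes. Its level was 10.10, 9.85, 9.96 and 9.81 in the stroke arrays labelled TNF knockout, against 9.66, 9.50, 9.89 and 9.73 in the naive ones. It was 10.36, 10.24, 10.08 and 9.94 in C57BL/6 stroke arrays, against 9.81, 9.70, 9.97 and 9.86 in naive C57BL/6 arrays. In each genotype the stroke arrays were mostly above the naive arrays, with 1 naive array, the third of each group, inside the stroke range. The stroke change was 0.24 ± 0.10 (SE; adjusted p = 0.539) under the TNF knockout label, 0.32 ± 0.10 (adjusted p = 0.126) in C57BL/6 arrays, and 0.28 ± 0.07, or 1.21-fold, over both (limma, adjusted p = 0.0437).

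The Slc2a1 call was at the edge of the threshold. Leaving out 1 array kept it in 4 of 16 fits, those without C57BL/6 stroke array 4 (adjusted p = 0.0214), C57BL/6 naive array 3 (0.0408), or naive array 3 (0.0288) or stroke array 4 (0.0499) of those labelled TNF knockout. It was lost without each of the other 12 arrays, with adjusted p from 0.0521 to 0.102. With the name prefix as a term it was 0.30 with adjusted p = 0.0632. Within the arrays labelled TNF knockout, the stroke change was 0.42 among KL76 arrays (1 stroke, 3 naive) and 0.14 among KL82 arrays (3 stroke, 1 naive). Slc2a3, the neuronal glucose transporter GLUT3, changed by 0.23 ± 0.07 over both genotypes and did not pass (adjusted p = 0.0885), and neither did the insulin-regulated transporter Slc2a4 (0.16, adjusted p = 0.290).

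Hk2 encodes hexokinase 2, the inducible form of the enzyme that traps glucose in the cell as glucose 6-phosphate. It read 6.68, 6.52, 6.44 and 6.68 in the stroke arrays labelled TNF knockout, against 6.28, 5.89, 6.44 and 6.15 in the naive ones. The C57BL/6 arrays gave 6.42, 6.73, 6.74 and 6.37 after stroke, against 6.15, 5.93, 6.10 and 6.25 in naive arrays. The C57BL/6 groups did not overlap, which 1 of 10 genes showed there, against 8.26 percent of all genes, and those labelled TNF knockout met at 6.44. The change was 0.39 ± 0.12 (adjusted p = 0.209) under the TNF knockout label and 0.46 ± 0.12 in C57BL/6 arrays (limma, adjusted p = 0.0488). Over both genotypes it was 0.42 ± 0.08, or 1.34-fold, with a 95 percent interval of 0.25 to 0.59 (adjusted p = 0.00552). It was the smallest p-value of the 10 genes, at rank 170 of all 19938.

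The combined Hk2 result held in all 16 fits that left out 1 array (adjusted p from 0.00267 to 0.0163) and with the name prefix as a term (0.45, adjusted p = 0.0103). Within the arrays labelled TNF knockout the change was 0.48 among KL76 arrays (1 stroke, 3 naive) and 0.40 among KL82 arrays (3 stroke, 1 naive). The C57BL/6 call on its own was less steady. It held only without C57BL/6 stroke array 1 (adjusted p = 0.0315) or 4 (0.047), or without naive array 2 (0.0366) or 3 (0.0434) of those labelled TNF knockout, and was lost without each of the other 12 arrays (0.0536 to 0.156). The constitutive brain hexokinase Hk1 changed by -0.03 (95 percent interval -0.18 to 0.13) and the myeloid hexokinase Hk3 by -0.02 (-0.14 to 0.11) over both genotypes. Whether Hk2 differs from them in its change was not tested.

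Pfkfb3 makes fructose 2,6-bisphosphate, the activator of phosphofructokinase, and Ldha encodes the lactate dehydrogenase subunit that favours making lactate. Pfkfb3 read 7.71, 7.39, 7.48 and 7.39 in stroke arrays labelled TNF knockout, against 7.41, 7.45, 7.67 and 7.31 in naive ones. Among C57BL/6 arrays it read 7.28, 7.54, 7.47 and 7.34 after stroke, against 7.20, 7.24, 7.32 and 7.25 in naive arrays. Both pairs of groups overlapped, and the combined change of 0.09 ± 0.07 (95 percent interval -0.04 to 0.23) did not pass (adjusted p = 0.518). Its relatives Pfkfb2 (0.03) and Pfkfb4 (-0.05) did not pass either.

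Ldha had the narrowest range of the stroke groups. It read between 10.96 and 11.01 in the 4 stroke arrays labelled TNF knockout, against 10.93, 10.81, 10.97 and 11.01 in naive ones, and 10.99, 11.04, 10.96 and 10.97 in C57BL/6 stroke arrays, against 10.86, 10.80, 11.01 and 11.09 in naive C57BL/6 arrays. The stroke arrays lay within the range of the naive arrays in both genotypes. Its combined change was 0.06 ± 0.05 with a 95 percent interval of -0.05 to 0.17 (adjusted p = 0.654). Ldhb, the subunit that favours turning lactate back into pyruvate, changed by -0.12 ± 0.07 (adjusted p = 0.410).

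**Figure D2:**
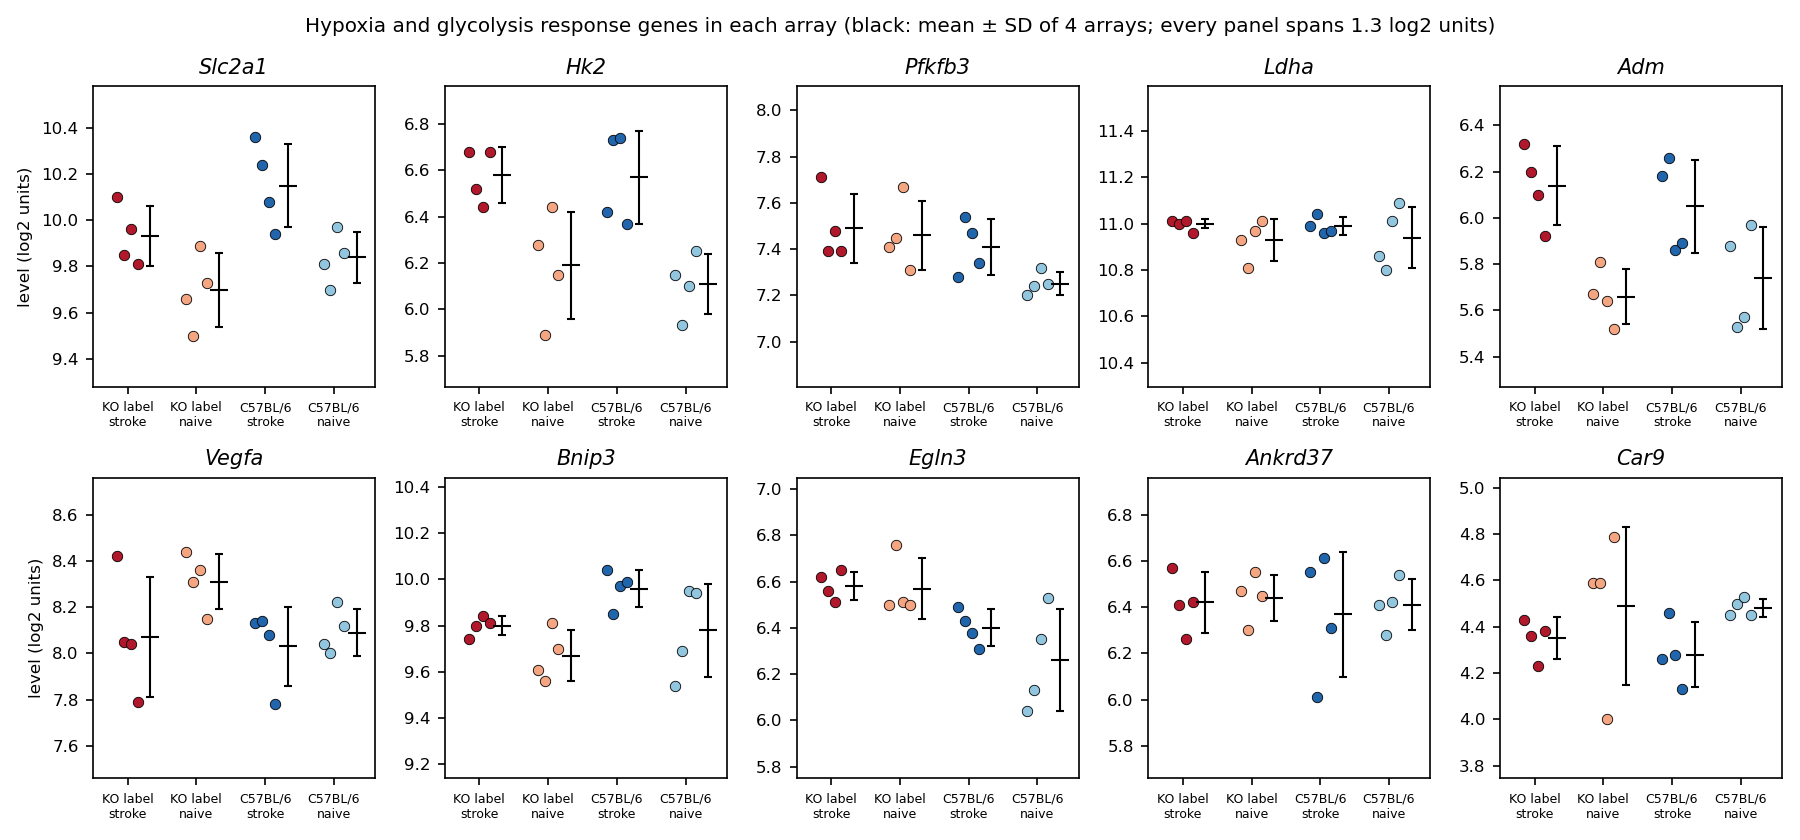
Level of each of the 10 genes in every array, in log2 units, for stroke and naive arrays labelled TNF knockout (KO label; red, orange) and stroke and naive C57BL/6 arrays (dark and light blue); points are arrays in replicate order and black marks show mean ± SD of 4 arrays. Stroke and naive arrays do not overlap for Adm under the TNF knockout label and for Hk2 in C57BL/6, whereas Ldha, Ankrd37 and Pfkfb3 overlap.

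Of the signals to blood vessels, Adm passed the test over both genotypes and Vegfa did not. Adm encodes adrenomedullin, a peptide that widens vessels and steadies the endothelium. It read 6.32, 6.20, 6.10 and 5.92 in the stroke arrays labelled TNF knockout, against 5.67, 5.81, 5.64 and 5.52 in the naive ones. In C57BL/6 arrays it read 6.18, 6.26, 5.86 and 5.89 after stroke, against 5.88, 5.53, 5.57 and 5.97 in naive arrays. The groups labelled TNF knockout did not overlap, which 1 of 10 genes showed there, against 5.87 percent of all genes. The C57BL/6 groups overlapped through naive arrays 1 and 4.

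The Adm change was 0.47 ± 0.12 under the TNF knockout label (limma, adjusted p = 0.0875), 0.31 ± 0.12 in C57BL/6 arrays (adjusted p = 0.188), and 0.39 ± 0.08, or 1.31-fold, over both (adjusted p = 0.0118). The combined call held in all 16 fits that left out 1 array (adjusted p from 0.00669 to 0.0304) and with the name prefix as a term (0.45, adjusted p = 0.00764). Among KL76 arrays (1 stroke, 3 naive) the change was 0.61 and among KL82 arrays (3 stroke, 1 naive) 0.55. When the 8 arrays labelled TNF knockout were fitted alone, Adm passed there with 0.48 (adjusted p = 0.0466). That was the only 1 of 10 alternative fits in which Adm passed under this label (limma, adjusted p up to 0.171). With 1 array left out, Adm passed there in 0 of 16 fits (adjusted p from 0.064 to 0.254). Adm2, a related peptide, had opposite signs in the genotypes and passed in neither. It read 5.80 to 6.02 in stroke and 5.59 to 5.75 in naive arrays labelled TNF knockout (0.18 ± 0.08, adjusted p = 0.513), and 5.64 to 5.83 in stroke and 5.76 to 5.90 in naive C57BL/6 arrays (-0.14 ± 0.08, adjusted p = 0.368), so that its mean change was 0.02. The difference of these changes was 0.31 ± 0.11 (limma, unadjusted p = 0.00824, adjusted p = 0.553).

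Vegfa, the main growth factor for new vessels and for their permeability, did not pass in any of the 3 stroke comparisons. It read 8.42, 8.05, 8.04 and 7.79 in the stroke arrays labelled TNF knockout, against 8.44, 8.31, 8.36 and 8.15 in the naive ones. In C57BL/6 arrays it read 8.13, 8.14, 8.08 and 7.78 after stroke, against 8.04, 8.00, 8.22 and 8.12 in naive arrays. Under the TNF knockout label 3 of 4 stroke arrays lay below every naive array and the first lay within the naive range. Its change there was -0.24 ± 0.11 (limma, adjusted p = 0.593), with a 95 percent interval of -0.48 to 0, and Vegfa is the 1 gene counted above as lower at an unadjusted p under 0.05. The change was -0.06 ± 0.11 in C57BL/6 arrays (adjusted p = 0.820) and -0.15 ± 0.08 over both (adjusted p = 0.369). The 95 percent interval of the combined change, -0.32 to 0.02, reached no higher than 0.02. With the name prefix as a term it was -0.07. Within the arrays labelled TNF knockout it was 0.05 among KL76 arrays (1 stroke, 3 naive) and -0.19 among KL82 arrays (3 stroke, 1 naive). Its relative Vegfb changed by -0.19 ± 0.07 without passing (adjusted p = 0.182).

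Of the VEGF and adrenomedullin partners, which are receptors, co-receptors, related ligands and angiopoietins, 0 of 15 passed in any of the 3 stroke comparisons, with a median combined change of -0.01. The 4 with the smallest p were Angpt2, which loosens vessels (0.23 ± 0.07, adjusted p = 0.107), Vegfb, the angiopoietin receptor Tek (-0.21 ± 0.10, adjusted p = 0.279) and its ligand Angpt1 (0.27 ± 0.13, adjusted p = 0.296).

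Bnip3 encodes a mitochondrial outer membrane protein that marks mitochondria for removal. It is read by 2 probe sets with the same gene symbol, and the one with the higher mean was used. That probe set read 9.74, 9.80, 9.84 and 9.81 in the stroke arrays labelled TNF knockout, against 9.61, 9.56, 9.81 and 9.70 in the naive ones. The C57BL/6 values were 10.04, 9.85, 9.97 and 9.99 after stroke, against 9.54, 9.69, 9.95 and 9.94 in naive arrays. The naive arrays reached into the stroke range in both genotypes. The combined change was 0.16 ± 0.06 (95 percent interval 0.02 to 0.29) and did not pass (adjusted p = 0.228). The other probe set gave 0.12 ± 0.07 (adjusted p = 0.429). Its relative Bnip3l changed by -0.01.

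Egln3 encodes a prolyl hydroxylase that marks HIF for degradation and is itself a HIF target. It read 6.62, 6.56, 6.51 and 6.65 in the stroke arrays labelled TNF knockout, against 6.50, 6.76, 6.51 and 6.50 in the naive ones, and 6.49, 6.43, 6.38 and 6.31 in C57BL/6 stroke arrays, against 6.04, 6.13, 6.35 and 6.53 in naive C57BL/6 arrays. Stroke and naive arrays overlapped in both genotypes. The combined change was 0.08 ± 0.07 (adjusted p = 0.627). The sister enzymes Egln1 (-0.09) and Egln2 (0.06) did not pass.

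Ankrd37, a small ankyrin repeat protein gene commonly used as a readout of HIF, read 6.57, 6.41, 6.26 and 6.42 in the stroke arrays labelled TNF knockout, against 6.47, 6.30, 6.55 and 6.45 in the naive ones. In C57BL/6 arrays it read 6.55, 6.01, 6.61 and 6.31 after stroke, against 6.41, 6.28, 6.42 and 6.54 in naive arrays. All 4 groups overlapped, and the combined change was -0.04 ± 0.08 with a 95 percent interval of -0.20 to 0.13 (adjusted p = 0.879). Its sign turned without C57BL/6 stroke array 2 (0.03).

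Car9 encodes carbonic anhydrase IX, a cell surface enzyme that regulates pH outside hypoxic cells. It read 4.43, 4.36, 4.23 and 4.38 in the stroke arrays labelled TNF knockout, against 4.59, 4.59, 4.0 and 4.79 in the naive ones. In C57BL/6 arrays it read 4.26, 4.46, 4.28 and 4.13 after stroke, against 4.45, 4.50, 4.53 and 4.45 in naive arrays. All values lay below the array medians, and the deposited values come with no detection p that would place them above background. The combined change of -0.17 ± 0.09 did not pass (adjusted p = 0.335), but it was -0.25 when the lowest of all arrays, the third naive one under the TNF knockout label, was left out, and then passed (adjusted p = 0.0333). Among other carbonic anhydrases, the membrane-bound enzyme Car4, found on brain capillaries, fell by 0.33 ± 0.07 over both genotypes (adjusted p = 0.0156), at 7.52 to 7.71 in stroke and 7.96 to 8.11 in naive arrays labelled TNF knockout and at 7.70 to 8.24 in stroke and 7.98 to 8.30 in naive C57BL/6 arrays. Car12 (-0.10) and Car14 (0.22) did not pass. Car2, an abundant enzyme of oligodendrocytes, changed by -0.23 ± 0.09 under the TNF knockout label (adjusted p = 0.490) and by 0.17 ± 0.09 in C57BL/6 (adjusted p = 0.374), which average -0.03. The difference of the Car2 changes, -0.40 ± 0.13, did not pass (limma, unadjusted p = 0.0079, adjusted p = 0.545).

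**Figure D3:**
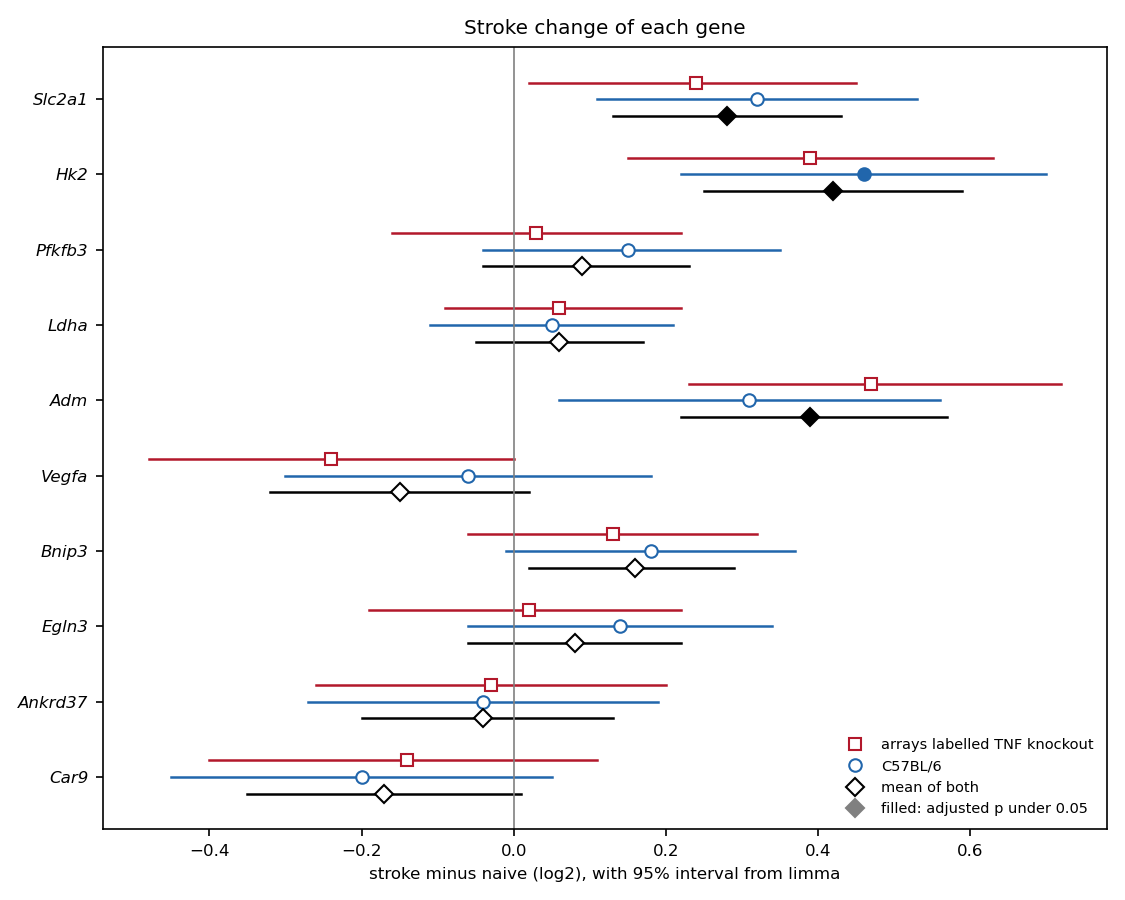
Stroke minus naive for each of the 10 genes on the log2 scale, with 95 percent intervals from limma, in arrays labelled TNF knockout (red squares), C57BL/6 arrays (blue circles) and averaged over both (black diamonds); filled symbols have adjusted p under 0.05. The filled symbols are Slc2a1, Hk2 and Adm over both genotypes, at 0.28, 0.42 and 0.39, and Hk2 in C57BL/6 arrays, at 0.46.

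The wider pathway was read through lists of other genes, some of which share members. Of the HIF subunits and regulators, 0 of 10 passed over both genotypes (median 0.02), with Epas1, which encodes HIF-2 alpha, at -0.23 ± 0.09 (adjusted p = 0.199) and Hif1a at 0.11 ± 0.06 (adjusted p = 0.378). The remaining 2 of the 4 smallest p-values there were those of the HIF partner Arnt2 (-0.11, adjusted p = 0.312) and of Vhl (-0.11, adjusted p = 0.422), the ubiquitin ligase subunit that binds hydroxylated HIF.

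Of 20 other hypoxia targets tested 1 rose and 0 fell (median 0.01). It was Hmox1, which degrades haem and which oxidative stress and haem also induce. Hmox1 read 6.98 to 7.78 in stroke and 5.62 to 6.09 in naive arrays labelled TNF knockout, and 6.83 to 8.08 in stroke and 5.25 to 6.22 in naive C57BL/6 arrays. Its combined change was 1.71 ± 0.16 (limma, adjusted p = 1.68e-06), with no overlap of stroke and naive arrays. The next smallest p-values after Slc2a3 were those of Pdk1, a kinase that closes the pyruvate dehydrogenase gate (0.17 ± 0.06, adjusted p = 0.152), and P4ha2, a collagen prolyl hydroxylase (0.19 ± 0.09, adjusted p = 0.272).

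Of the glycolysis enzymes beyond the genes above, 0 of 13 passed (median 0.02, from -0.12 to 0.12), and the smallest p was that of muscle-type phosphofructokinase Pfkm (0.12 ± 0.05, adjusted p = 0.250), followed by Ldhb, Aldoc (0.08, adjusted p = 0.426) and Pgk1 (0.09, adjusted p = 0.458). Of the genes for glucose and lactate transport and its switches 0 of 14 passed (median 0.08), with 6 higher at an unadjusted p under 0.05, which 8.64 percent of all genes were. They include the lactate transporter Slc16a3 (0.21 ± 0.07, adjusted p = 0.106) and Pdk2 (0.17 ± 0.06, adjusted p = 0.176). Of the mitochondrial pyruvate and citrate cycle genes 0 of 12 passed (median 0.05, from -0.07 to 0.12), led by Idh3a (0.12 ± 0.06, adjusted p = 0.325), Dlat (0.11, adjusted p = 0.349), Pdha1 (0.10, adjusted p = 0.369) and Pdhb (0.12, adjusted p = 0.411).

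**Figure D4:**
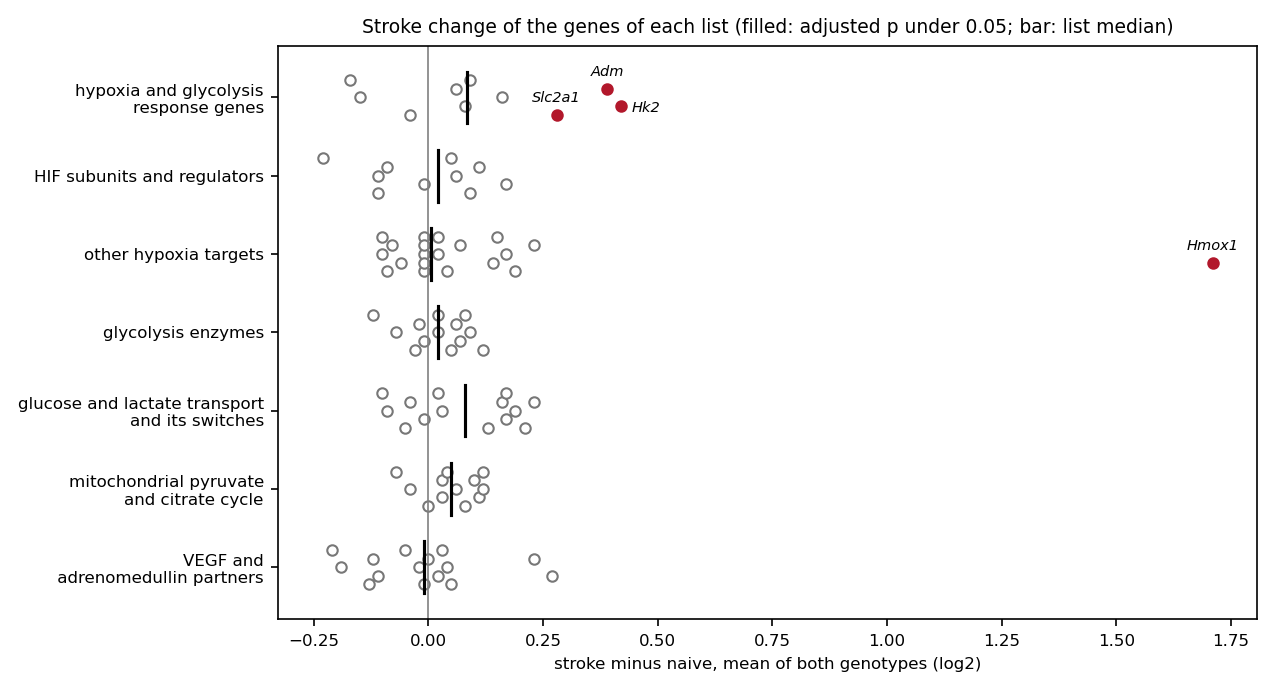
Stroke minus naive averaged over both genotypes (log2) for each gene of the 10 and of 6 lists of related genes, 1 point per gene; filled red points have adjusted p under 0.05 and black bars are list medians. Hk2, Adm and Slc2a1 at 0.28 to 0.42 and Hmox1 at 1.71 are the filled points, and list medians lie between -0.01 and 0.09.

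Between genotypes 0 of 10 genes passed, either in naive arrays (against 0.386 percent of all genes) or after stroke (against 0.436 percent). This comparison asks whether the label of the mice goes with the level of the hypoxia genes. In naive arrays Egln3 differed by 0.30 ± 0.10 (TNF knockout label minus C57BL/6, adjusted p = 0.139), with 3 of the 4 arrays labelled TNF knockout inside the C57BL/6 range, and Pfkfb3 differed by 0.21 ± 0.09 (adjusted p = 0.267). After stroke 2 of 10 genes did not overlap between the labels, against 5.8 percent of all genes: Egln3 lay higher under the TNF knockout label (0.18 ± 0.10, adjusted p = 0.500) and Bnip3 lower (-0.16 ± 0.09, adjusted p = 0.522). The other Bnip3 probe set gave -0.18 ± 0.10 (limma, adjusted p = 0.513). Slc2a1 differed by -0.22 ± 0.10 after stroke (adjusted p = 0.415). In the list of VEGF and adrenomedullin partners Ramp2, the co-receptor that makes Calcrl an adrenomedullin receptor, was lower in the stroke arrays labelled TNF knockout, at 6.88 to 7.10, than in C57BL/6 stroke arrays, at 7.42 to 7.57 (-0.48 ± 0.09, adjusted p = 0.0122). That call was lost without stroke array 4 of those labelled TNF knockout (-0.43, adjusted p = 0.0590). Among 5 endothelial markers Cldn5, a tight junction protein, was also lower after stroke under the TNF knockout label (-0.54 ± 0.11, limma, adjusted p = 0.0396), and the summed endothelial signal of the stroke groups did not overlap, at 790 to 840 against 930 to 1078. Of the other cell types, the sums for activated microglia and macrophages and for oligodendrocytes also lay lower under that label without overlap. The stroke groups overlapped in the other marker sums, such as reactive astrocytes (1565 to 2097 against 1217 to 2125) and neurons (13975 to 15148 against 14072 to 15002). Single markers also went the other way, such as Cd44 (mean 6.18 against 5.88 in C57BL/6) and Gad1 (11.20 against 10.97). Activated microglia and macrophage markers summed to 321 to 371 under the TNF knockout label, against 411 to 565 in C57BL/6, with Cd68, a lysosomal protein of macrophages, lower (-0.38 ± 0.08, limma, adjusted p = 0.034). Oligodendrocyte markers summed to 2408 to 2676, against 2774 to 3425, with 0 of 3 past the adjusted threshold. Their sums did not overlap in naive arrays either, at 2736 to 2815 under the TNF knockout label against 2837 to 3361 in C57BL/6. The part of these differences in the values of Slc2a1, Bnip3, Egln3 and Ramp2 was not tested. In the other 5 lists 0 genes passed between genotypes, naive or after stroke.

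The stroke changes of the 10 genes were not shown to differ between genotypes. For the difference of the stroke changes (TNF knockout label minus C57BL/6) limma called 0 of 10 genes and 0 of 19938, which is 0 percent, whereas 7.42 percent of all genes had an unadjusted p under 0.05 and 0 of the 10 did. The differences ran from -0.18 for Vegfa to 0.17 for Adm. For Hk2 it was -0.07 with a 95 percent interval of -0.41 to 0.27, for Slc2a1 -0.08 (-0.39 to 0.22), and for Adm 0.17 (-0.18 to 0.51). All 3 intervals include 0, and the farther end of each is close to or above the size of that gene's combined stroke change.

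Among themselves the 10 genes were compared in pairs. Across the 16 arrays, after taking each value as a deviation from its group mean, 38 of 45 pairs correlated above 0, with a median of 0.22 and a range from -0.37 to 0.67. The highest were Ldha with Bnip3 (0.67), Slc2a1 with Vegfa (0.66) and Pfkfb3 with Vegfa (0.65), while Hk2 with Slc2a1 gave 0.46, Slc2a1 with Adm 0.35 and Hk2 with Adm 0.12. These are descriptions over 16 arrays that share their normalisation. Pairs of other genes were not taken for comparison, and differences between name prefixes within a group remain in the deviations. The genes most like the risen ones over all 16 values, groups included, were C5ar1, Fgf2 and Tnfrsf1a for Hk2 (Pearson r of 0.908, 0.899 and 0.894), Tlr2, Slc3a2 and Ftl1 for Slc2a1 (0.905, 0.896 and 0.880) and Emp3, Ier3 and Myd88 for Adm (0.836, 0.829 and 0.819). Of these 9 genes, C5ar1, a complement receptor of myeloid cells, changed most after stroke (1.26 ± 0.12 over both genotypes). Fgf2 changed least (0.23 ± 0.06, limma, adjusted p = 0.0525), and neither it nor Ftl1 (0.26 ± 0.07, adjusted p = 0.0678) passed.

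Markers of reactive glia moved with the stroke groups, and their part in the changes of Hk2, Adm and Slc2a1 was not tested. Of the reactive astrocyte markers 6 of 6 rose over both genotypes, and their summed signal on the linear scale was 1565 to 2097 in stroke and 744 to 838 in naive arrays labelled TNF knockout, and 1217 to 2125 in stroke and 697 to 740 in naive C57BL/6 arrays. Of the markers of activated microglia and macrophages 4 of 5 rose, with sums of 321 to 371 and 211 to 233 in stroke and naive arrays labelled TNF knockout and 411 to 565 and 195 to 234 in stroke and naive C57BL/6 arrays. Among general astrocyte markers 1 of 4 rose, Gfap. Of the endothelial markers, the cells in which Slc2a1 is known to be rich, 0 of 5 passed, with sums of 790 to 840 and 813 to 927 in stroke and naive arrays labelled TNF knockout and 930 to 1078 and 858 to 1011 in stroke and naive C57BL/6 arrays. Neutrophil and monocyte markers (0 of 6), neurons (0 of 5), oligodendrocytes (0 of 3), red blood cells (0 of 1) and liver (0 of 2) had no marker past the threshold. Siglech among 4 microglia markers and Rgs5 among 3 pericyte markers were lower. No marker was at 0 on the log2 scale, and detection is not known.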

How the data were processed

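The authors deposited 1 log2 value per probe set and array, rounded to 2 decimals. Array medians of 6.01 to 6.05 show that arrays were already brought to a common scale. GCOS, RMA, GCRMA and Partek appear in the submitters' processing notes, with no version or role. Trizol extraction and biotin labelling are given in the labels' protocols. Of 28944 probe sets 21789 had 1 gene symbol in GEO's platform annotation, which gave 19938 genes. For a gene with several, the one brightest on average over the 16 arrays was kept. No dim probe set was left out.

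With limma 3.58.1 (R 4.3.3), lmFit estimated a mean for each group from all 16 arrays and eBayes moderated the variances, on 12 residual plus 7.52 prior degrees of freedom. P-values were two-sided and adjusted by Benjamini and Hochberg over all genes, with a threshold of 0.05. The scripts were tested on simulated data. The labels do not say that a replicate number marks a shared animal, litter or day, so the model has no block for it. Alternatives changed the scaling (quantile normalization or median centring), the genes (without the dimmest 33.3 percent, probe sets averaged, or every probe set kept, the last added after seeing the data), the variances (trended and robust, or array weights), the threshold (0.01), the model (fitting only the compared groups, a block for replicate number, or a term for name prefix) and the arrays (each left out in turn).

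The 10 genes, the 6 pathway lists and the 11 marker lists were chosen with earlier results of these data known. The text names Tnf, the 10 genes, their listed paralogs, up to 4 genes per pathway list with the smallest p in the combined stroke comparison, markers, and the 3 genes most correlated with each gene past the threshold. Ramp2 was singled out after its values were seen. Promoter windows came from RefSeq, GRCm38.p6. Python 3.11.15 with pandas 2.3.3 and numpy 2.4.6 made the tables, and matplotlib 3.10.9 the figures.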

Additional observations from a re-analysis of the deposited data

Results flagged for a closer look

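In 40 sets of 4 arrays (10 genes in 4 groups), the lowest or highest array was tested for a gap to the nearest other array above Dixon's 95 percent critical value of 0.829 of the range, which chance exceeds in about 1 set of 20. It was exceeded in 2 sets. Vegfa in C57BL/6 stroke array 4 read 7.78, while the other 3 arrays of the group lay at 8.08 to 8.14; without that array the C57BL/6 stroke change of Vegfa was 0.02. Egln3 in naive array 2 of those labelled TNF knockout read 6.76, while the other 3 lay at 6.50 to 6.51.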

How the results depend on the processing

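The 3 calls over both genotypes became 2 with quantile normalization (Hk2 and Adm) or with the name prefix as a term (the same pair of genes), and 1 at a threshold of 0.01 (Hk2); leaving out each array gave 2 to 4. The single C57BL/6 call became 0 at a threshold of 0.01, with quantile normalization (Hk2 adjusted p = 0.0537), median centring (0.0609), array weights (0.0517), only the groups compared (0.0922) or every probe set tested (0.0506), and leaving out each array gave 0 to 1. In the arrays labelled TNF knockout 0 became 1, Adm, with only the groups compared. Same-numbered arrays deviated together in part: their deviations from the group means correlated at 0.04 to 0.34 between stroke and naive under the TNF knockout label (3 of 4 pairs above 0.1), at -0.07 to 0.18 in C57BL/6 (1 of 4), at 0.05 to 0.13 between the naive groups and at 0.06 to 0.26 between the stroke groups. Between those groups 4, 2, 6 and 6 of 8 arrays, in that order, correlated best with their own number, so the data neither pair all arrays nor show them unrelated. Under the replicate block the counts of the 10 genes were 0 in the arrays labelled TNF knockout, 1 in C57BL/6 and 3 over both genotypes, so it changed no call among the 10 genes, and it moved the count over all genes from 334 to 559 in C57BL/6. That count was 107 to 639 when each array was left out (107 without C57BL/6 stroke array 3, 639 without C57BL/6 stroke array 1), 98 with only the groups compared, 536 without the genes of lowest mean and 516 with trended and robust variances. Under the TNF knockout label it was 128, and 72 with the prefix as a term, 212 with array weights and 69 to 145 when each array was left out; over both genotypes it was 559, and 332 with the prefix as a term and 369 to 629 when each array was left out. Between genotypes, and for the difference of the stroke changes, 0 of the 10 genes passed under any setting run, and the prefix could not be a term between genotypes. Over all genes the difference of stroke changes had 0 calls, but 4 with trended and robust variances, 1 with array weights, 1 under the replicate block and up to 3 when an array was left out. The label difference had 77 calls in naive arrays, but 185 without the genes of lowest mean, 141 under the replicate block, 51 with only the groups compared and 23 to 138 when each array was left out. After stroke it had 87, but 164 without the genes of lowest mean, 162 with trended and robust variances, 46 with only the groups compared and 47 to 120 when each array was left out.

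Signs turned only for small values. In the arrays labelled TNF knockout Ankrd37 was 0.02 with the prefix as a term, and without each array it ran from -0.08 to 0.02, Egln3 from -0.01 to 0.08 and Pfkfb3 from -0.04 to 0.10. In C57BL/6 Ankrd37 ran from -0.12 to 0.08 and Vegfa from -0.10 to 0.02; over both genotypes Ankrd37 ran from -0.07 to 0.03, and the Hk2 difference of stroke changes from -0.17 to 0.02. Of 22 further differences between genotypes that the text gives only as a range or count, 11 turned sign under at least 1 setting, none larger than 0.06 in size. Signal over background is unknown without detection p-values, which limits Car9 most.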
